A study of Danio rerio with 24 samples.

Results

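The change of retinal gene expression between 36 and 52 hours post fertilization (hpf) was examined in young (yng) mutant zebrafish, in 6 of the 24 arrays of the series: 3 arrays of dissected yng retinas at 36 hpf and 3 at 52 hpf. The arrays were chosen by their titles, and the 2 ages were compared over all 15502 probe sets that are not controls. All fish were of strain AB, and no other allele or agent is named. Mutants were staged by their wild-type (WT) siblings. Each array of yng retinas at 52 hpf, of WT retinas and of whole embryos came from a pool of 10 retinas or embryos, while each yng retina pool at 36 hpf held 20 retinas, both eyes of 10 embryos. Age and pool size therefore cannot be told apart in yng retinas. The WT retinas (3 arrays at each age) and the whole yng embryos (3 arrays at each age) serve below only to show where the mutant retina differed.

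Fish with the yng mutation lack the function of smarca4a, or brg1, whose product is the ATPase that lets SWI/SNF complexes remodel chromatin, and their retina is known to be specified but poorly differentiated. In the zebrafish eye, progenitors held by Notch signalling leave the cell cycle in waves: ganglion cells first, then amacrine, horizontal, bipolar and photoreceptor cells, and Müller glia last. Between these ages a wild-type retina passes from mostly dividing progenitors towards a layered tissue.

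Values per array are deposited intensities of a probe set on a linear scale. Differences are 52 minus 36 hpf in log2 of the quantile-normalized intensity plus 16, given with the standard error of the linear model and n = 3 arrays an age. Adding 16 understates the change of dim probe sets. Adjusted p-values are two-sided, from limma with Benjamini-Hochberg adjustment over all 15502 probe sets, and a gene is said to rise or fall where its adjusted p is under 0.05. They rest on the spread between pools within all 8 groups of the series, embryos included. The main fit has no block, so this spread also holds shifts shared by arrays of a hybridization day.

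The 6 arrays had median intensities from 150.7 to 162.6, and 217 to 310 probe sets of each were listed at 0. The lowest correlation between 2 arrays of an age was 0.9843 at 36 hpf and 0.9877 at 52 hpf, and 0.9722 among WT retinas at 36 hpf, where replicate 1 stood above the other arrays for several neuronal genes (526, 123 and 48.2 for cplx2a, 751, 284 and 170 for sypa). Of 11 measured marker genes of the retina 10 lay above the yng embryos at both ages with no overlap. The exception was mab21l2, which was lower in retinas than in embryos. A wash error is recorded for replicate 1 of yng retinas at 36 hpf. All yng retina arrays at 36 hpf ran in 1 module of the fluidics station and all at 52 hpf in another, so module and age cannot be told apart either. All WT arrays ran on station 1 and all yng arrays on station 2. Station and genotype therefore cannot be told apart where levels of yng and WT are compared below. Each group, embryos included, ran in its own module of a station. Fluidics module therefore cannot be told apart from the differences between changes over time below either. RNA quality was read from the gapdh control probe sets, whose log2 ratio of 3' to 5' signal was 2.817, 3.117 and 2.557 at 36 hpf and 3.161, 3.259 and 2.636 at 52 hpf in yng retinas, and it was higher at 52 hpf by 0.344, 0.142 and 0.079 in replicates 1 to 3. Its part in the results below was not tested.

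The mutated gene itself, smarca4a, differed little between the ages in yng retinas. Its brighter probe set read 1003, 1083 and 1115 at 36 hpf and 1247, 1251 and 1246 at 52 hpf, a difference of 0.16 ± 0.08 (adjusted p = 0.131). The arrays of the 2 ages did not overlap, and with the replicate number, which in retinas follows the hybridization day, as a block the adjusted p was 0.0441. The difference also passed with intensities as deposited (0.22, adjusted p = 0.0455) and with least squares without moderation (0.16, adjusted p = 0.00662), so this call depended on the processing. WT retinas read 3439 to 3658 at 36 hpf and 3961 to 4158 at 52 hpf in the same probe set, above every yng array. The dimmer probe set gave -0.05 ± 0.18 (adjusted p = 0.894).

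Between 36 and 52 hpf, 3969 probe sets (25.6%) passed the threshold in yng retinas, 1887 higher (12.2%) and 2082 lower (13.4%) at 52 hpf. A change of 2-fold or more was seen in 763 of the risers and 322 of the falls, and one of 8-fold or more in 52 and 0. With the intensities as deposited the split was 2247 higher and 1631 lower, and with the replicate number as a block 2556 higher and 3305 lower. The genes with the largest changes had various known roles and are given first, without a theme.

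The largest named rise was that of sv2bb, which encodes a glycoprotein of synaptic vesicles. It read 40.7, 23 and 42.3 at 36 hpf and 1445, 1752 and 1891 at 52 hpf, a difference of 4.90 ± 0.20 (adjusted p = 1.33e-12). The synaptophysin gene sypb went from 52, 22.6 and 44.1 to 1549, 1352 and 1489 (4.60 ± 0.27), with 4.01 and 0.66 in its other probe sets, and all of these passed. In both genes every array at 52 hpf stood many times above every array at 36 hpf. The mitochondrial creatine kinase gene ckmt2a, which serves energy transfer in cells of high demand, went from 23.6, 23 and 24.1 to 964, 946 and 1193 (4.55 ± 0.15). Its relative ckmt1 was listed at 0, 0 and 5.92 at 36 hpf and at 190, 308 and 224 at 52 hpf (3.76 ± 0.25). Both creatine kinase genes were thus near the floor of the array at 36 hpf and clear of it at 52 hpf.

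The recoverin gene rcvrn2, a calcium sensor of photoreceptors, read 11.9, 2.86 and 0 at 36 hpf and 401, 386 and 521 at 52 hpf (4.33 ± 0.21). A second probe set of rcvrn2 gave -0.22 and did not pass. The Iroquois transcription factor gene irx4a, a marker of ganglion cells, read 27.8, 0 and 0 at 36 hpf and 390, 473 and 433 at 52 hpf (4.24 ± 0.27). The G protein subunit genes gng13b, found in bipolar cells of mammals, and gngt2a, of cones, rose by 4.16 ± 0.21 and 3.92 ± 0.28. The remaining large rises were those of sypa (3.8), znf395b, a zinc finger gene (3.72), fstl5, a follistatin-like gene (3.72), the calmodulin kinase gene camk2d2 (3.71, and 1.70 in a second probe set), tmem184a (3.71), prom1b, a prominin gene (3.69), and acsl6, an acyl-CoA synthetase gene (3.58). Adjusted p for these rises ran from 2.21e-14 to 3.55e-08, and the rule that chose these genes required the ages not to overlap, as was the case for 36.7% of all probe sets.

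**Figure D1:**
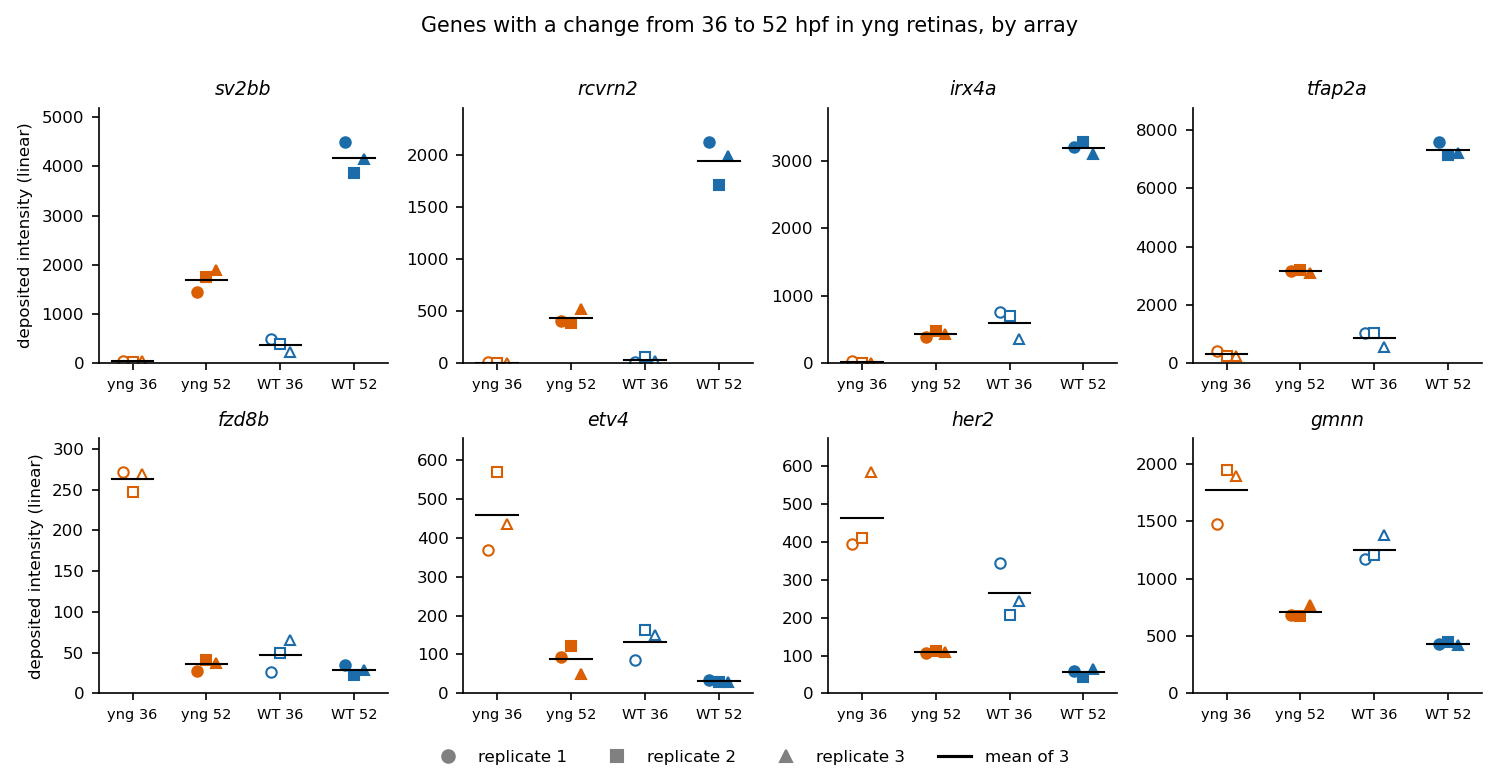
Deposited intensity (linear axis from 0) of 8 genes in each array of yng retinas (orange) and WT retinas (blue) at 36 hpf (open) and 52 hpf (filled), with the mean of 3 arrays as a bar. The upper genes were higher at 52 hpf in every yng array and the lower genes lower, with no overlap of the ages in yng retinas.

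Among the falls, fzd8b, a Wnt receptor gene, went from 272, 247 and 269 at 36 hpf to 28.1, 40.8 and 37.6 at 52 hpf (-2.58 ± 0.20, adjusted p = 5.2e-09). The secreted Wnt antagonist gene sfrp1a went from 150, 155 and 218 to 27.1, 10.3 and 30.5 (-2.43 ± 0.22). The chemokine gene cxcl12a, which guides migrating cells and axons, went from 114, 212 and 139 to 29.1, 9.21 and 13.9 (-2.46 ± 0.24), and its second probe set fell by 1.55. These 3 genes encode signals or receptors at the cell surface. As with the rises, the rule that chose the falls required the ages not to overlap. The optic stalk factor gene pax2a read 658, 640 and 900 at 36 hpf and 154, 182 and 173 at 52 hpf (-1.97 ± 0.22), with -0.85 in a second probe set. The ephrin receptor gene epha4b (-2.14), septin9a (-2.19) and the matrix protein gene postnb (-2.11) fell too. A second probe set of postnb was listed at 0 in every yng retina array (-0.045). Falls were also seen in the purine synthesis gene gart (-1.91), ildr1a (-1.86) and gtsf1 (-1.81). One more gene of this group, ciao2b of iron-sulphur cluster assembly, fell by 1.96 in 1 probe set (126, 27.3 and 40.5 at 52 hpf). Its other probe set gave -0.21 (adjusted p = 0.0639), and the fall did not pass when 1 was added in place of 16 (adjusted p = 0.14).

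The synapse genes were the group with the largest median among the 33 lists examined. Of 21 measured, 15 rose and 0 fell, with a median of 2.03, against 12% higher and 15.9% lower and a median of -0.07 over all 8793 genes. The counts of the other lists in yng retinas are to be set beside these shares too. In a bulk sample, more cells of a type and more RNA per cell cannot be told apart. The complexin gene cplx2a, a regulator of vesicle fusion, read 10.4, 10.1 and 7.7 at 36 hpf and 195, 252 and 184 at 52 hpf (3.05 ± 0.41). The SNARE genes snap25b and snap25a rose by 3.04 and 2.08, and the calcium sensor gene syt1a by 2.82. Further risers included the vesicle proton pump gene atp6v0cb (2.24), the fusion factor gene nsfa (2.18) and the active zone gene rims2a (1.41). The neurexin gene nrxn1a, an adhesion protein at the presynapse, read 0, 0 and 0 at 36 hpf and 10.4, 0 and 24.2 at 52 hpf (adjusted p = 0.226). The adhesion gene lrrc4.1 read 4.02 to 13.9 at 36 hpf and 11.3 to 13.7 at 52 hpf, and the synapsin gene syn1 22.5 to 39 and 28.8 to 47.3. In these 3 genes, chosen after their values were seen like the other list members named beyond the 4 largest, the ages overlapped.

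Ganglion cells, the output neurons of the retina, were represented by 24 measured genes of cell identity and axon growth, of which 16 rose and 1 fell (median 0.88). Their summed intensity was 6785 to 8010 at 36 hpf and 14346 to 16239 at 52 hpf. The LIM factor gene isl1a read 684, 401 and 496 at 36 hpf and 2872, 3288 and 3586 at 52 hpf (2.47 ± 0.16), and isl2a went from 22.3, 17.5 and 26 to 377, 534 and 418 (3.49 ± 0.24). The thymosin gene tmsb rose by 2.51 ± 0.20, from 25.7 to 59 to 295 to 316. The growth cone gene gap43 read 236, 149 and 123 at 36 hpf and 539, 591 and 603 at 52 hpf (1.62 ± 0.18). At 52 hpf gap43 in yng retinas thus stood just below the 605 to 1203 that WT retinas had at 36 hpf. Levels of the microtubule regulator gene stmn2a at 52 hpf, 238 to 293, lay within the 218 to 546 of WT retinas at 36 hpf. Other genes of the list differed in this. At 52 hpf isl1a and isl2a in yng lay above WT retinas at 36 hpf (2042 to 2227 and 31.8 to 118). By contrast tmsb lay below them (396 to 682), and irx4a, at 390 to 473, within them (356 to 756). The one fall was that of cxcr4b (-0.77), the receptor of cxcl12a. The ganglion cell factor gene pou4f2 read 86.4 to 154 at 36 hpf and 130 to 196 at 52 hpf (adjusted p = 0.32).

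Genes of amacrine, horizontal and bipolar cells, the interneurons of the retina, gave 13 risers and 0 falls among 20 measured (median 1.53). The AP-2 factor gene tfap2a, needed for amacrine cells in mammals, read 409, 253 and 257 at 36 hpf and 3161, 3198 and 3076 at 52 hpf (3.15 ± 0.17). The homeobox genes prox1a and meis2b rose by 3.46 ± 0.43 and 3.00 ± 0.36, with prox1a at 60.9 to 106 at 36 hpf and 797 to 1723 at 52 hpf. Inhibitory transmission was represented by gad1b and gad2, which make GABA (2.04 and 2.05), and slc32a1, which loads it into vesicles (2.53). The last read 10.1, 11.4 and 19.7 at 36 hpf and 158, 159 and 180 at 52 hpf, with no overlap. The tyrosine hydroxylase gene th, a marker of dopaminergic amacrine cells, did not pass (-0.04).

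All 6 measured photoreceptor factors rose (median 1.11). The homeobox gene crx read 2747, 2394 and 2312 at 36 hpf and 6105, 6192 and 5892 at 52 hpf (1.22 ± 0.16), otx5 rose by 1.90 ± 0.20, and nr2e3, a nuclear receptor of photoreceptors, by 1.96 ± 0.20. The nuclear receptor genes rorab and thrb, the latter needed for red cones, rose by 1.00 and 0.69. These 5 genes read at least 227 in every array at 36 hpf, so that they were well detected before the rise.

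Of 37 measured genes of phototransduction and the outer segment, 8 rose and 1 fell (median 0.10). Their share of 24.3% in either direction is near the 27.9% of all genes, of which 12% rose and 15.9% fell. Besides rcvrn2 and gngt2a, the risers included elovl4b, which makes very long fatty acids of the outer segment, at 203, 201 and 171 at 36 hpf and 927, 833 and 1048 at 52 hpf (2.03 ± 0.15). The retinol-binding protein gene rbp4l went from 143, 147 and 141 to 515, 536 and 703 (1.78 ± 0.14). No opsin gene of the list passed. The UV opsin gene opn1sw1 read 64.4, 125 and 77.6 at 36 hpf and 60.1, 92.5 and 83.5 at 52 hpf, the blue opsin gene opn1sw2 179 to 213 and 171 to 237, and the red opsin gene opn1lw1 7.97 to 25.8 and 8.57 to 20.5. Each opsin's ages overlapped. The rod transducin gene gnat1 stayed at 3.41 to 14.9 and 3.08 to 6.82 in 1 probe set and 63.4 to 85.2 and 59.4 to 74.1 in the other, neither passing.

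The transcription factors of the eye field and of progenitors split. Of 26 measured, 4 rose and 8 fell (median -0.16). Besides sox3 (0.32), the risers were the homeobox genes six7, of cones, vsx1, of bipolar cells, and rx3, of the early eye field. At 36 hpf six7 read 536, 379 and 316, and at 52 hpf 3197, 4453 and 3370 (2.96 ± 0.26), while its dim second probe set gave 0.04. Levels of vsx1 were 1728, 1021 and 1959 and then 5646, 5664 and 6674 (1.87 ± 0.25), and those of rx3 398 to 481 and 1356 to 1877 (1.65 ± 0.14). Falls were seen in sox19a (-1.48 ± 0.35), rx2 (-1.15), rx1 (-0.81), hmx4 (-0.65), nr2e1 (-0.62), six3a (-0.52), six6a (-0.44) and tbx2b (-0.39). The pan-retinal factor genes pax6a and pax6b gave -0.19 and -0.05 and did not pass.

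Of 15 proneural genes, which commit progenitors to neuronal fates, 6 rose and 1 fell (median 0.28). The fall was that of atoh7, required for ganglion cells, which read 3999, 3631 and 3602 at 36 hpf and 2748, 2291 and 2370 at 52 hpf (-0.64 ± 0.17). The bHLH gene olig2 read 1278, 1020 and 1369 at 36 hpf and 3288, 3346 and 3611 at 52 hpf (1.41 ± 0.15), and neurog1 went from 248, 246 and 284 to 499, 728 and 935 (1.24 ± 0.25). The dim neurod6b (1.24) and neurod6a (0.84) rose too, the latter to only 11.2 to 23.8, and neurod6a did not pass when 64 was added in place of 16. The photoreceptor and amacrine gene neurod1 rose by 0.74, from 2563 to 2975 to 4651 to 4975.

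Notch signalling, by which neighbours keep each other from differentiating, gave 0 risers and 9 falls among 22 genes (median -0.30). The falls were largest in the target genes: her2 read 395, 411 and 586 at 36 hpf and 106, 112 and 110 at 52 hpf (-1.97 ± 0.18), and hey1 662, 979 and 801 and then 189, 224 and 186 (-1.89 ± 0.13). The effector genes her9 and her6 fell by 1.37 ± 0.14 and 1.29 ± 0.15. Receptors and ligands gave smaller values, with notch2 at -0.90, dlc at -0.76 and dlb at -0.42 among those that passed, while dla, notch1a and notch3 (-0.28, -0.32 and -0.61) did not pass.

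FGF signalling, which starts ganglion cell formation in the fish eye, gave 0 risers and 10 falls among 19 genes (median -0.34). The ETS factor gene etv4, a target of the pathway, went from 369, 569 and 434 to 92.3, 121 and 51.1 (-2.29 ± 0.23), etv5b from 2387, 2995 and 2442 to 1007, 1272 and 848 (-1.36 ± 0.13), and the feedback inhibitor gene spry4 fell by 1.41 ± 0.19. The ligand gene fgf8a fell by 1.00 and the receptor genes fgfr2 and fgfr4 by 0.98 and 0.67. Retinoid genes, which pattern the eye, gave 3 risers and 8 falls among 22 (median -0.15), a share of 50% against 27.9% of all genes. The retinoic acid synthesis gene aldh1a2 fell by 1.61 ± 0.20 and cyp26a1, which degrades retinoic acid, by 1.05 ± 0.23, and the binding protein gene crabp1a rose by 1.23 ± 0.22. In axon guidance, 5 of 40 rose and 7 fell (median -0.11), a share of 30% against 27.9% of all genes, led by epha4b and the netrin gene ntn1a (-1.69 ± 0.23, with -0.54 and 0.05 in its other probe sets) and by the Slit receptor genes robo3 (1.54) and robo2 (1.46).

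Müller glia, the last cells to form, gave 4 risers and 5 falls among 20 genes (median -0.09), a share of 45% against 27.9% of all genes. The glutamate transporter genes went opposite ways, slc1a2b from 424, 521 and 262 to 1364, 1661 and 1412 (1.73 ± 0.19) and slc1a3a from 869, 1027 and 1038 to 318, 398 and 408 (-1.32 ± 0.15). The intermediate filament gene gfap fell by 1.78 ± 0.32, from 87.2 to 105 to 11.6 to 24.6, and the carbonic anhydrase gene cahz rose by 1.41 ± 0.27. The retinaldehyde carrier gene rlbp1a, a Müller marker, read 624, 693 and 548 at 36 hpf and 421, 571 and 449 at 52 hpf, and did not pass. Of 35 ion channel and transmitter receptor genes 8 rose and 1 fell (median 0.13). Their share of 25.7% in either direction is near the 27.9% of all genes, of which 12% rose and 15.9% fell. The NMDA receptor gene grin1a led (2.25 ± 0.26 in 1 probe set, -0.08 in the other), followed by the nicotinic receptor gene chrnb3a (1.51 ± 0.19).

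Cell cycle genes fell unevenly. Of 53 genes of DNA replication 49 fell and 0 rose (median -0.83), a share of 92.5% against 15.9% over all genes. The replication licensing inhibitor gene gmnn read 1478, 1944 and 1891 at 36 hpf and 680, 672 and 770 at 52 hpf (-1.28 ± 0.11), the helicase gene mcm2 3538, 4491 and 4611 and then 2130, 2277 and 2303 (-0.95 ± 0.13), and the mismatch repair gene msh6 fell by 1.42 ± 0.18. The origin recognition gene orc2 fell by 1.11 ± 0.16 and the replication protein gene rpa2 by 1.18 ± 0.33. The call for rpa2 was lost without replicate 3 at 36 hpf (adjusted p = 0.0548) or replicate 2 at 52 hpf (adjusted p = 0.069). Of the 4 that did not pass, pcna read 11150, 10640 and 10580 at 36 hpf and 9550, 9526 and 9375 at 52 hpf (-0.21 ± 0.08, adjusted p = 0.0512). Summed over the list, intensity was 124693 to 142887 at 36 hpf and 85813 to 89806 at 52 hpf.

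Among 45 genes of mitosis and the cyclins 12 fell and 0 rose (median -0.20). This share of 26.7%, all falls, compares with 15.9% lower and 12% higher over all genes, or 27.9% in either direction. The mitotic cyclin gene ccnb1 read 3578, 3684 and 3350 at 36 hpf and 3109, 3346 and 3076 at 52 hpf (-0.21 ± 0.09, adjusted p = 0.103), and the G1 cyclin gene ccnd1 6606 to 8344 and 5639 to 7266 (adjusted p = 0.234). The falls were led by the S-phase cyclin gene ccne1 (-0.97 ± 0.30), the condensin gene smc4 (-0.61 ± 0.14), cdk2 (-0.58 ± 0.10) and fbxo5, an inhibitor of the anaphase-promoting complex (-0.51 ± 0.14). The call for ccne1 was lost without replicate 2 at 36 hpf (adjusted p = 0.0768) or replicate 3 at 52 hpf (adjusted p = 0.101). Of 11 genes that restrain the cycle 6 rose and 1 fell (median 0.31), led by btg1 (1.33 ± 0.18) and gadd45ga (1.27 ± 0.14).

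**Figure D2:**
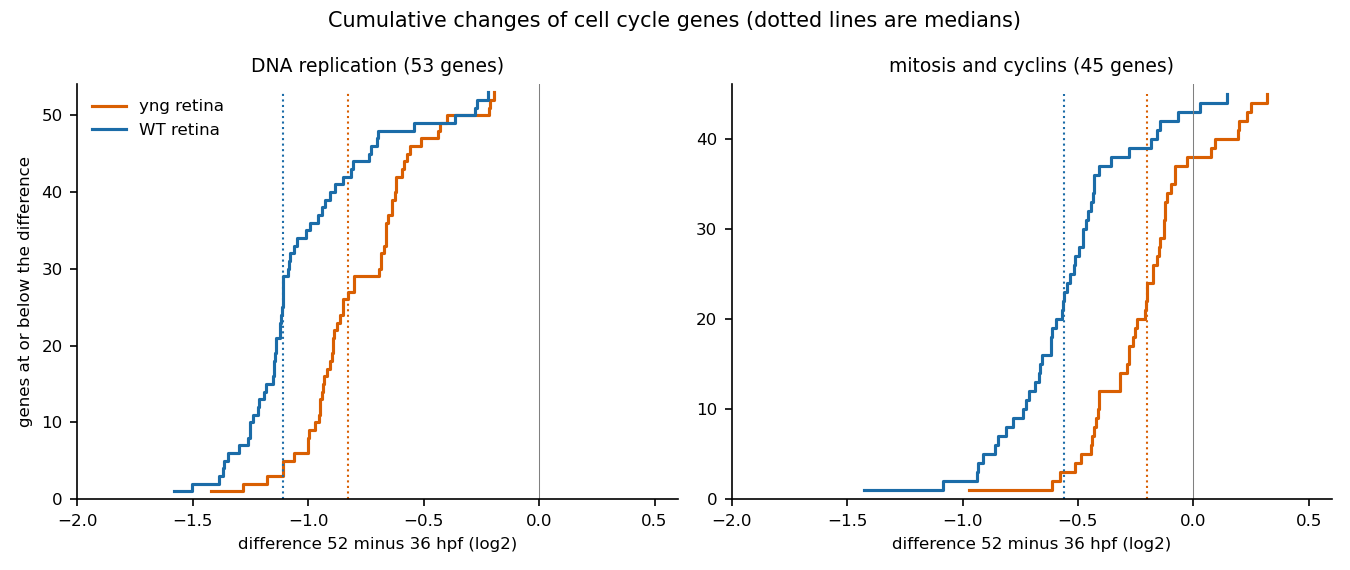
Cumulative number of genes (vertical axis) at or below a difference of 52 minus 36 hpf (log2, horizontal axis) in yng retinas (orange) and WT retinas (blue), for 53 DNA replication genes and 45 genes of mitosis and the cyclins, with list medians dotted. The medians were -0.83 in yng and -1.11 in WT for replication, and -0.20 and -0.56 for mitosis.

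Of 27 genes of glycolysis 14 rose and 1 fell (median 0.40). The lactate dehydrogenase gene ldhbb read 14.3, 11.4 and 11.3 at 36 hpf and 199, 235 and 246 at 52 hpf (3.01 ± 0.18). The brain aldolase gene aldocb rose by 1.73 ± 0.21 (0.13 in a dim second probe set), pgam1b by 1.56 ± 0.15 and the lactate transporter gene slc16a3b by 1.5 ± 0.19. Of 87 genes of the respiratory chain 4 rose and 2 fell (median -0.11). This share of 6.9% in either direction lies below the 27.9% of all genes, of which 12% rose and 15.9% fell. Among the risers were the subunit genes cox4i2 (2.84 ± 0.15) and ndufa4b (2.87 ± 0.32). Of 71 genes in the ribosomal protein list 1 fell, rpl7l1 (-0.55 ± 0.14), whose ages overlapped (1848 to 3018 and then 1632 to 1904). The list's median was -0.06, close to that of all genes.

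Of 37 genes of the integrated stress response and amino acid synthesis 12 rose and 2 fell (median 0.18). The arginase gene arg2 read 76.7, 13.1 and 65.8 at 36 hpf and 383, 535 and 325 at 52 hpf (2.72 ± 0.28). The stress factor gene atf5a went from 145, 122 and 109 to 408, 1052 and 428 (1.95 ± 0.21), its relative atf5b rose by 0.66, and cth, of cysteine synthesis, by 1.86 ± 0.15. In both atf5 genes replicate 2 stood highest at 52 hpf, with atf5b at 254, 781 and 351. The central factor gene atf4a and its target asns gave -0.26 and 0.00 and did not pass. Chaperones gave 7 risers and 2 falls among 37 (median 0.05). Their share of 24.3% in either direction is near the 27.9% of all genes, of which 12% rose and 15.9% fell. They were led by hsp90aa1.2 at 696, 875 and 1077 and then 2529, 2961 and 2793 (1.58 ± 0.14), and by hsp90b1 and calr of the endoplasmic reticulum (1.40 ± 0.24 and 1.38 ± 0.19).

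Immediate early genes, which respond to stimuli within minutes, gave 2 risers and 11 falls among 35 (median -0.19). At 36 hpf fosab read 1188, 1113 and 1758, and at 52 hpf 321, 301 and 290 (-1.99 ± 0.41), with -1.80, -0.85 and -0.34 in its other probe sets, the last not passing. The levels of junba went from 394, 308 and 379 to 132, 133 and 120 (-1.43 ± 0.31), and mych fell by 1.22 ± 0.23. The risers were cebpb (1.33 ± 0.29) and atf3 (0.64). Levels of cebpb were 61.1, 16.2 and 73.3 and then 142, 232 and 87.2, with differences of 1.02, 2.83 and 0.14 in replicates 1 to 3. Of 29 genes of p53 and apoptosis 6 rose and 5 fell, with tp53inp1 at 271, 209 and 257 and then 836, 1123 and 1137 (1.83 ± 0.12) and bnip3 (2.09 ± 0.27) highest, and the list's median was 0 and changed sign between alternatives. Of 30 glucocorticoid and clock genes 10 rose and 3 fell (median 0.15), led by the repressor genes nfil3-6 (2.41 ± 0.16) and ciarta (2.39 ± 0.16), and zbtb16a fell by 1.45 ± 0.17. Of 16 SWI/SNF genes only bcl7ba passed (-1.06 ± 0.13). In the immediate early, p53 and glucocorticoid lists 37.1%, 37.9% and 43.3% passed in either direction, against 27.9% of all genes.

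Markers of tissues that a dissection could carry along differed by tissue. The summed intensity of 41 muscle genes was 2218 to 2545 at 36 hpf and 2323 to 2509 at 52 hpf, against 225199 to 237915 and 225645 to 230244 in yng embryos. That of 43 liver, gut and yolk genes was 2690 to 2769 and then 2554 to 2898, against at least 109296 in embryos, and that of 49 skin and skeleton genes 3297 to 3493 and then 3395 to 3437, against at least 110923. In these lists 5 muscle genes rose and 1 fell, 0 liver genes rose and 3 fell, and 2 skin genes rose and 9 fell. Of 14 genes of pigment cells and retinal pigment epithelium 2 rose and 4 fell (median -0.33), with the melanocyte factor gene mitfa falling by 1.40 ± 0.19 and the isomerase gene rpe65a rising by 1.31 ± 0.23 (0.04 in a second probe set). Of 16 vessel genes 4 fell and 0 rose, and the median of 0.05 changed sign between alternatives. In the list of brain regions outside the eye 5 of 51 rose and 6 fell (median -0.10), with gbx2 (2.49 ± 0.14) and mbpb (1.95 ± 0.28) highest. At 52 hpf gbx2 read 424 to 527 in yng retinas and 346 to 480 in yng embryos. Among the falls was pax2a (-1.97), named above as an optic stalk gene, so the list does not mark brain alone. The summed level of this list was 8988 to 9629 at 36 hpf and 6812 to 7515 at 52 hpf, with no overlap, against 24525 to 26747 and 25586 to 27271 in yng embryos. The vessel sum, too, was lower at 52 hpf without overlap (2249 to 2822 and then 1807 to 2098), and that of the pigment list was 3714 to 4032 and then 3185 to 3815. The part of these tissues in the results was not tested. In the muscle, liver, skin, vessel and brain lists 14.6%, 6.98%, 22.4%, 25% and 21.6% of the genes passed, each below the 27.9% over all genes in either direction. In the pigment list 42.9% passed, above that share. The vessel genes that passed all fell, and over all genes 15.9% fell. Within the liver list anxa4 fell by 0.58 in 1 probe set (adjusted p = 0.0018) and rose by 1.21 in the other (adjusted p = 6.15e-05), so that its direction is not settled.

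Blood and lens genes varied between pools. The embryonic globin gene hbbe3 read 822, 575 and 1704 at 36 hpf and 197, 609 and 164 at 52 hpf (-1.68 ± 0.34), with replicate 2 at 52 hpf within the range at 36 hpf. Of 30 blood genes 2 rose and 4 fell. This share of 20% in either direction lies below the 27.9% of all genes, of which 12% rose and 15.9% fell. The summed level of the blood genes was 4155 to 6848 and then 4328 to 7925. The lens crystallin gene crybb1 read 1274, 868 and 192 at 36 hpf and 1535, 2044 and 238 at 52 hpf, so that replicate 3 was far below the others at both ages. The crystallin gene crygmxl2 read 139, 54.5 and 0 and then 403, 617 and 17.9, and crygm2c 0, 0 and 0 and then 107, 104 and 0. Of these 3 only crygm2c passed (1.87 ± 0.45, adjusted p = 0.00341), and it did not with only the yng retina groups in the fit (adjusted p = 0.0947). Of 16 lens genes 12.5% passed, below the 27.9% of all genes. Their summed level was 1000 to 2875 at 36 hpf and 2091 to 6029 at 52 hpf. This sum includes prox1a, named above among the interneuron genes, at 60.9 to 106 and then 797 to 1723, so it is not a measure of lens alone.

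**Figure D3:**
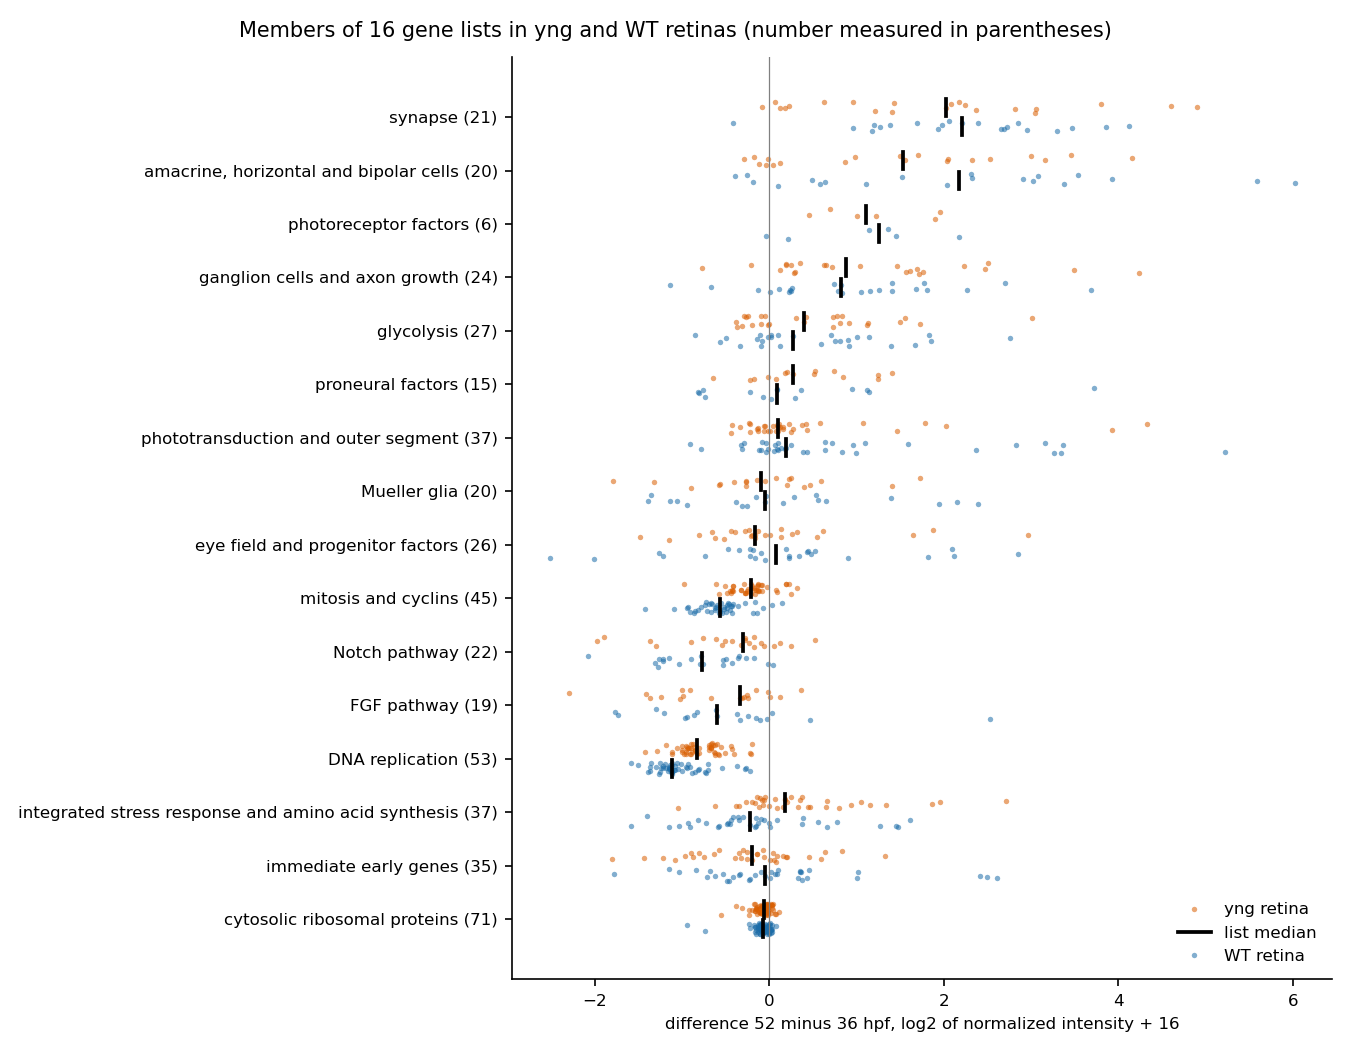
Difference 52 minus 36 hpf (horizontal axis, log2 of normalized intensity + 16) of each measured member of 16 gene lists (rows) in yng retinas (orange) and WT retinas (blue), with list medians as bars. In yng retinas synapse genes had a median of 2.03 and DNA replication genes one of -0.83.

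To show where the mutant retina differed, its change was set against that of WT retinas, which shares no arrays with it. In WT retinas 5720 probe sets (36.9%) passed, 2500 higher (16.1%) and 3220 lower (20.8%). Of the yng risers 82.1% also rose in WT, and these made up 62% of the WT risers. Of the yng falls 78.9% also fell in WT, making up 51% of the WT falls. Only 39 probe sets passed in opposite directions, and over all 15502 probe sets the changes of the genotypes had r = 0.806, a description across probe sets that are not independent.

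The difference of the changes, yng minus WT, was tested as an interaction. It passed for 637 probe sets (4.11%), 194 positive (1.25%) and 443 negative (2.86%), and for 1406 (629 and 777) with the replicate number as a block. With only the 4 retina groups in the fit 384 passed. Without replicate 1 of WT retinas at 36 hpf, the array that stood apart, 734 passed, and the differences of calb2b, junba and irx4a described below were -4.01, -4.35 and 1.78. In 164 cases both genotypes rose and yng rose less, in 34 yng rose more, and in 202 only WT rose. Both fell in 36 cases, less in yng in 28 and more in 8, only WT fell in 76, and yng alone rose in 42 and fell in 43. Of the 3969 probe sets that passed in yng retinas, 9.02% had such a difference. In WT retinas the log2 ratio of 3' to 5' gapdh signal was 3.282, 3.116 and 2.758 at 36 hpf and 2.678, 2.95 and 2.35 at 52 hpf, lower at the later age and thus opposite to yng retinas. Its part in the interaction was not tested. Only yng retina pools at 36 hpf held 20 retinas, and each retina group ran in its own fluidics module. Neither pool size nor module can therefore be told apart from the interaction.

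**Figure D4:**
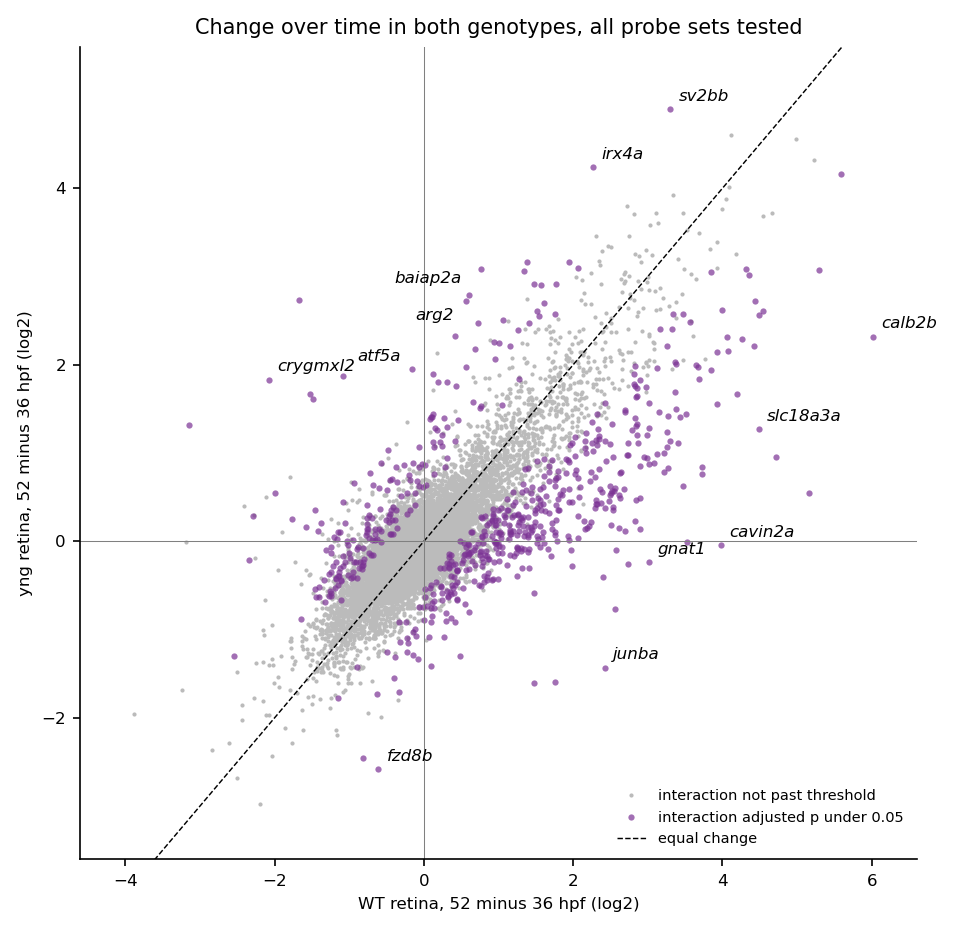
Difference 52 minus 36 hpf (log2) of each of 15502 probe sets in WT retinas (horizontal axis) and yng retinas (vertical axis), with the 637 whose difference between genotypes passed in purple and equal change as a dashed line. Of the purple points 443 lie below the line and 194 above it.

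The 8 largest named negative differences belonged to cavin2a, junba, calb2b, pvalb6, bhmt, apobb.1, gnat1 and slc18a3a. The calretinin gene calb2b, a calcium buffer of amacrine and ganglion cells, read 50.1, 42.1 and 49.4 at 36 hpf and 292, 292 and 338 at 52 hpf in yng retinas (2.32 ± 0.20). In WT it went from 80.5, 58.3 and 21.6 to 5106, 4977 and 5144, so that yng rose less by 3.70 ± 0.28 (adjusted p = 4.96e-08). Its relative calb2a (yng minus WT -2.37) and the parvalbumin gene pvalb6, at 30.9 to 52.2 and 34.4 to 53.6 in yng but 500 to 619 in WT at 52 hpf (-3.55 ± 0.23), had negative differences too. The vesicular acetylcholine transporter gene slc18a3a, a marker of starburst amacrine cells, read 7.92, 0 and 4.58 and then 46.6, 38.2 and 31.8 in yng, against 406, 353 and 358 in WT at 52 hpf (-3.21 ± 0.17). In all 4 genes the yng arrays at 52 hpf lay below every WT array of that age.

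Among 37 phototransduction genes the difference passed as negative in 9 and positive in 1, against 4.13% of all genes in either direction. For gnat1 it was -3.25 ± 0.32 in 1 probe set, where WT retinas reached 161 to 209 at 52 hpf, and -0.86 in the other. The rod and cone transducin genes gngt1 (-2.19) and gngt2b (-1.69), the phosphodiesterase gene pde6hb (-1.94) and elovl4b (-1.33 ± 0.21) belonged to them. Photoreceptor factors differed in 1 of 6, rorab (-1.17 ± 0.26). The gene crx had -0.15 ± 0.23 (adjusted p = 0.898), and its arrays at 52 hpf overlapped between the genotypes (5892 to 6192 in yng, 5323 to 6315 in WT).

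Of 21 synapse genes 8 had a negative difference and 1 a positive one, against 4.13% of all genes in either direction. Among the negative ones snap25b rose in both genotypes (-0.81), while nrxn1a (-2.84), lrrc4.1 (-1.87) and syn1 (-1.08) rose in WT and did not pass in yng. The positive one was sv2bb (1.60 ± 0.29), which was at 220 to 485 in WT at 36 hpf and at 3875 to 4496 at 52 hpf, above yng at both ages. The 24 ganglion cell genes gave 3 positive and 2 negative differences, to be set beside the same share. The positive ones were irx4a (1.98 ± 0.39), tmsb (1.45 ± 0.28) and isl1a (1.06 ± 0.22), each of them lower in yng than in WT at both ages. A second probe set of isl1a gave 0.775 ± 0.535 and did not pass (adjusted p = 0.622). The negative ones were robo2 (-1.24) and barhl2. For irx4a, near 0 in yng at 36 hpf, the difference depended on what was added before the logarithm and was 0.70 (adjusted p = 0.14) with 64, and with only the 4 retina groups in the fit its adjusted p was 0.0622.

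Progenitor and cell cycle genes gave differences of both signs. In WT retinas six6a, six3a and hmx4 rose (0.91, 0.23 and 0.44) while in yng they fell, with differences of -1.34, -0.75 and -1.09. Of the mitosis genes 34 of 45 fell in WT (median -0.56) against 12 in yng (median -0.20). Over all genes 24.6% fell in WT and 15.9% in yng. The difference itself passed in 2 mitosis genes, plk4 (0.60) and prc1b (0.51). Of the 53 replication genes it passed in 1, dnmt1, and of 22 Notch genes in 1, the ligand gene dla. The latter fell by 1.22 in WT and gave -0.28 in yng (difference 0.94 ± 0.16). Over all genes the difference passed in 4.13% in either direction, and the counts of these 3 lists lie near or below that share. The Müller gene rlbp1a rose by 2.4 in WT, to 3757 to 4078 at 52 hpf, and differed by -2.80. In WT, neurod6a went from 2.76, 14.3 and 3.59 to 347, 326 and 321 (difference -2.87 ± 0.26), while olig2 rose more in yng (1.32 ± 0.21).

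Genes that rose in yng retinas alone, or more there, included baiap2a, a regulator of actin at the membrane. It read 53, 34.3 and 46.9 at 36 hpf and 280, 499 and 517 at 52 hpf in yng (2.79 ± 0.18), and 11.2 to 28.4 and 40.3 to 47.5 in WT, a difference of 2.18 ± 0.26 (adjusted p = 1.42e-05). The differences of arg2 (2.16 ± 0.40) and atf5a (2.11 ± 0.30) were as large, with 31.7 to 51.3 for arg2 and 61.2 to 72.1 for atf5a in WT at 52 hpf. In the integrated stress list 6 of 37 differences were positive and 1 negative, against 4.13% of all genes in either direction. The positive ones included stc2a (1.74), atf5b (1.59) and asns (1.03), which fell in WT. In 3 of these genes, namely baiap2a, arg2 and atf5a, no yng array at 52 hpf overlapped a WT array. The clock repressor gene ciarta (1.13 ± 0.23) and the chaperone genes hsp70.3 (1.51 ± 0.31) and hsp90aa1.2 (0.92 ± 0.20) also rose more. A second probe set of hsp90aa1.2 gave a difference of 1.129 that did not pass (adjusted p = 0.277). At 36 hpf hsp90aa1.2 was lower in yng (696 to 1077) than in WT (1251 to 1884). At 52 hpf its levels overlapped between the genotypes (2529 to 2961 in yng, 2229 to 2777 in WT).

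The 35 immediate early genes gave 1 positive and 8 negative differences, against 4.13% of all genes in either direction. The AP-1 gene junba rose in WT from 309, 136 and 79.1 to 1131, 968 and 949 while it fell in yng (-3.85 ± 0.44, adjusted p = 9.3e-06). Likewise fosl2 and dusp2 rose in WT, to 192 to 223 and 307 to 369, and did not pass in yng (-2.46 and -2.31), and the positive one was atf3 (1.32). Outside the neuronal lists, the caveola gene cavin2a was listed at 0 in all 6 yng retina arrays and in WT at 36 hpf, and at 286, 210 and 266 in WT at 52 hpf (-4.02 ± 0.14). The apolipoprotein gene apobb.1 (-3.33 ± 0.53) and bhmt, of methionine synthesis (-3.34 ± 0.42 in 1 probe set and 0.03 in the other), followed. In the liver, gut and yolk list, which holds apobb.1, 7 of 43 genes rose in WT against 0 in yng. Over all genes 15.4% rose in WT and 12% in yng. In this list 6 differences were negative and 0 positive, against 4.13% of all genes in either direction. One of them, anxa4, had -2.06 in 1 probe set and -0.25 (adjusted p = 0.823) in the other. The WT sum of the list was 2368 to 2591 at 36 hpf and 2664 to 3543 at 52 hpf. The part of such tissue in these differences was not tested.

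Single arrays moved the 4 largest named positive differences. The lens genes crygmxl2 (3.90 ± 1.06, adjusted p = 0.0389) and crygm2c (2.95 ± 0.64) were low in replicate 3 of yng retinas, and without replicate 3 at 52 hpf their differences were 5.21 and 3.91. The call for crygmxl2 was lost on leaving out any 1 of 8 other retina arrays, with adjusted p from 0.0589 to 0.124, with 64 added (adjusted p = 0.0659) and with least squares (adjusted p = 0.086). The bHLH gene olig3 read 662, 51.3 and 18.4 in WT at 36 hpf, and its difference of 3.1 ± 0.86 (adjusted p = 0.0443, and 0.15 in a second probe set) was 1.85 without replicate 1 of that group (adjusted p = 0.00365). It did not pass without any 1 of the 9 other arrays that are yng retinas or WT retinas at 52 hpf, with adjusted p from 0.0541 to 0.129, with 64 added (adjusted p = 0.0989) or with least squares (adjusted p = 0.0934). The SOX gene sox21b read 832, 191 and 160 there, with 2.55 ± 0.49 and, without replicate 1, 1.86. With only the 4 retina groups in the fit none of these 4 passed, with adjusted p of 0.234 for crygmxl2, 0.104 for crygm2c, 0.246 for olig3 and 0.0557 for sox21b.

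**Figure D5:**
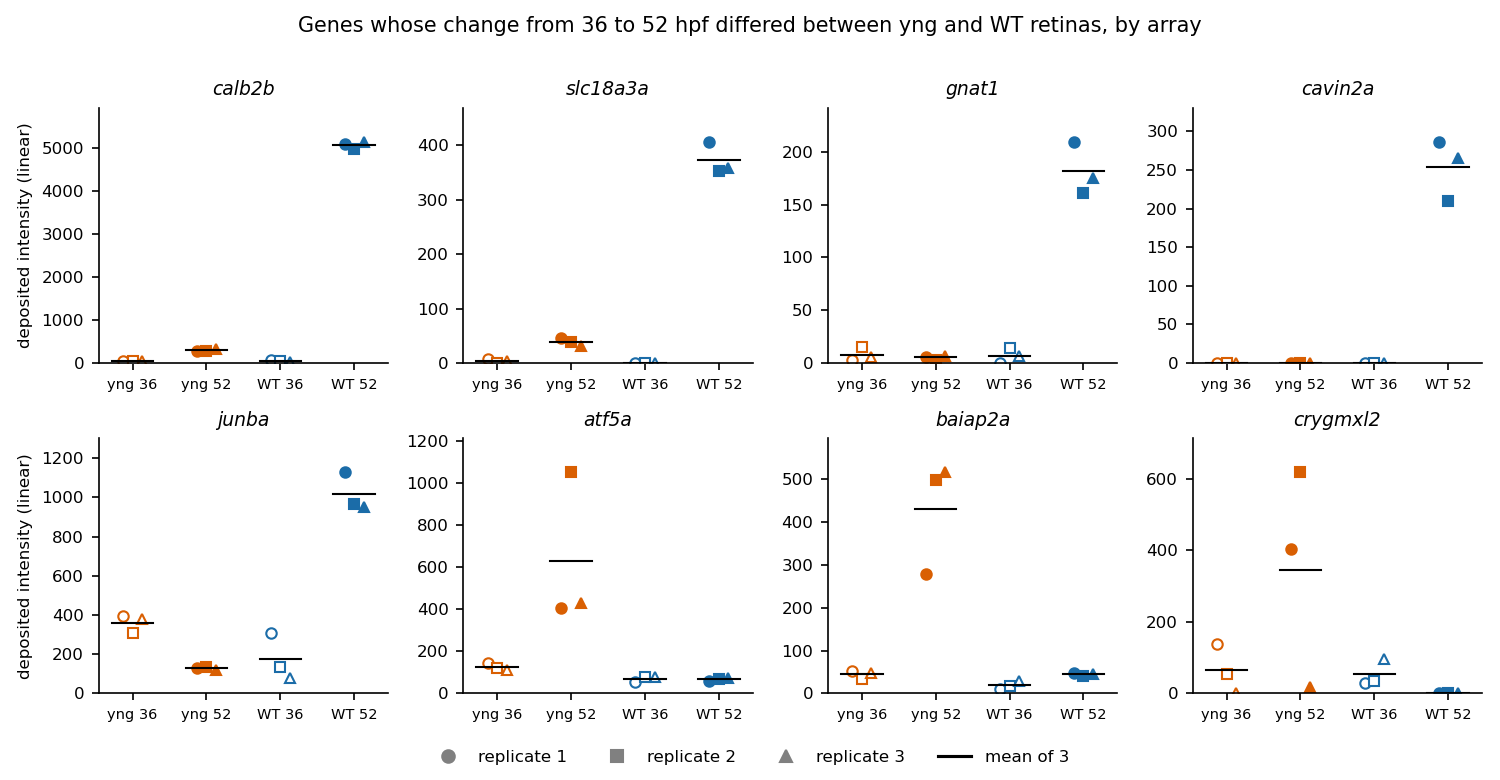
Deposited intensity (linear axis from 0) of 8 genes in each array of yng retinas (orange) and WT retinas (blue) at 36 hpf (open) and 52 hpf (filled), with the mean of 3 arrays as a bar. The upper genes and junba reached 161 or more in WT at 52 hpf, above every yng array of that age, and atf5a and baiap2a were higher in yng at 52 hpf.

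The change of the yng retina was also set against that of whole yng embryos, which hold the eyes among all other tissues. In embryos 1369 probe sets (8.83%) passed, 782 higher (5.04%) and 587 lower (3.79%). Of the 3969 that passed in yng retinas, 830 also passed in embryos in the same direction and 37 in the opposite one. The difference of the changes passed for 1471 probe sets (9.49%), 797 positive (5.14%) and 674 negative (4.35%), and for 2606 (1282 and 1324) with the replicate block. Pool size and fluidics module cannot be told apart from this difference.

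Among the retina's largest rises, those of sv2bb, irx4a, ckmt1, tmem184a and sypb were larger than in embryos by 4.3, 3.76, 3.74, 3.53 and 3.41, and in embryos sypb alone of these passed (1.19). Larger in the retina were also rasd1, a Ras-like gene (3.72), nexn, an actin-binding protein gene (3.31), and isl2a (3.29). In the retina rasd1 went from 20.1, 12.3 and 26.9 to 261, 273 and 357 (3.06 ± 0.16), and nexn from 28.6, 28.9 and 30 to 381, 406 and 377 (3.09 ± 0.13). By list, 12 of 21 synapse genes and 11 of 24 ganglion cell genes rose more in the retina and 0 less, against 10.6% of all genes in either direction. The photoreceptor factors did not behave so. Their difference passed in 1 of 6, crx, which rose by 2.03 in embryos and 1.22 in retinas (difference -0.81, adjusted p = 0.027).

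The falls of cxcl12a, fosab, postnb, septin9a, pax2a and fzd8b were larger in the retina than in the embryo, with differences of -2.88, -2.89, -2.33, -2.31, -2.31 and -2.17, and none of these 6 passed in embryos. In second probe sets the difference did not pass for postnb (-0.128, adjusted p = 0.919) and pax2a (-0.795, adjusted p = 0.0827). The other probe sets of fosab gave -2.551, -0.875 and -0.446, the last not passing (adjusted p = 0.36). That of cxcl12a gave -2.094 and passed. In 2 other cases the difference came from embryos alone. The collagen gene col10a1a, of skeletal cells, rose by 4.69 in embryos and read 0.361 to 11 in all yng retina arrays (difference -4.66), and agt, the angiotensinogen gene, rose by 2.57 in embryos and was listed at 0 in all 6 (difference -2.61).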

How the data were processed

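The series holds 24 one-colour Affymetrix zebrafish arrays, each from 33 ng of RNA of 1 pool, labelled in a two-cycle protocol, per the labels' protocols. The authors deposited 1 intensity for each probe set of an array, on a linear scale. Their probe summary and scaling are not given in the sources used here. Deposited array records of another kind, without expression values, gave hybridization day, fluidics module and wash errors. Array number limits the precision.

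Of 15617 probe sets 115 controls were removed. By the platform annotation, 10795 of the others have 1 symbol, 135 several and 4572 no symbol, and 1 symbol was updated by gene ID from RefSeq (GRCz12tu). Array medians spanned 0.67 on the log2 scale, so the 24 arrays were quantile normalized and converted to log2(value + 16). In limma 3.58.1 (R 4.3.3) each of 8 groups had its own mean, with 16 residual and 4.25 prior degrees of freedom. The pipeline was run on simulated data with independent noise in each array. Real arrays of the same replicate number deviated together, so that run does not measure error rates in these data. Tables and plots used Python 3.11.15, pandas 2.3.3, numpy 2.4.6 and matplotlib 3.10.9.

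Members and all 33 lists were chosen with earlier results of these data known. A list used the brightest probe set of each gene. Genes were named by rule: smarca4a, up to 15 each way by size in yng retinas with no overlap of ages, up to 8 each way by interaction, up to 4 past the threshold of each list (up to 2 more where fewer passed), and up to 5 each way listed at 0 in 1 age and at least 50 in the other, of which none had a gene name. Further list members were named after their values were seen.

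Replicate numbers follow hybridization days, except that replicate 3 of WT embryos at 52 hpf ran on day 4. Deviations from group means correlated at 0.327 to 0.399 between yng retina arrays of the same number and at -0.252 to -0.112 between other numbers. The lowest value for the same number was 0.304 over the yng groups and 0.0743 over the retina groups. The block was an alternative, beside other scalings, offsets of 1 and 64, a filter on dim probe sets, least squares without moderation, smaller fits and leaving out each array.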

Additional observations from a re-analysis of the deposited data

Results flagged for a closer look

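For the genes below, the change from 36 to 52 hpf differed between groups by limma's interaction test with Benjamini-Hochberg adjustment over 15502 probe sets. No explanation is weighed here.

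Between genotypes, the change in yng retinas exceeded that in WT retinas by 3.90 for crygmxl2, 3.1 for olig3, 2.95 for crygm2c and 2.55 for sox21b. The same difference was 2.18 for baiap2a, 2.16 for arg2, 2.11 for atf5a, 1.98 for irx4a and 1.60 for sv2bb. It was negative for cavin2a (-4.02), junba (-3.85), calb2b (-3.70), pvalb6 (-3.55), bhmt (-3.34), apobb.1 (-3.33), gnat1 (-3.25) and slc18a3a (-3.21). Smaller negative differences were those of fzd8b (-1.97), cxcl12a (-1.64) and gng13b (-1.43).

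Between tissues, the change in yng retinas exceeded that in yng embryos by 4.3 for sv2bb, 3.76 for irx4a, 3.74 for ckmt1, 3.72 for rasd1, 3.53 for tmem184a, 3.41 for sypb, 3.31 for nexn and 3.29 for isl2a. It was more negative for col10a1a (-4.66), fosab (-2.89), cxcl12a (-2.88), agt (-2.61), postnb (-2.33), septin9a (-2.31), pax2a (-2.31) and fzd8b (-2.17).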

How the results depend on the processing

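The count of probe sets past the threshold in yng retinas stayed within 1.5 times of 3969 under each alternative run, from 3318 to 3847 with 1 array left out and at 5861 with the replicate block. The count for the genotype interaction was 1406 with the replicate block, 384 with only the groups compared in the fit, and 521 to 734 with 1 array left out. The count for the tissue interaction was 2606 with the replicate block and 1197 to 1457 with 1 array left out. The block also brought brd9, rpl27a, rps27l and the brighter probe set of smarca4a past the threshold in yng retinas, and changed no other call among the named genes. That probe set of smarca4a passed as deposited and with least squares too. The sign turned for 4 genes, none of which passed in yng retinas. The dimmer probe set of smarca4a was 0.02 with intensities as deposited and -0.11 to 0.03 with 1 array left out, when its interactions were -0.35 to 0.02 with genotype and -0.22 to 0.03 with tissue. For pvalb6 the values were 0.09 as deposited, 0.05 with median scaling and -0.16 to 0.14 with 1 array left out. In that case col10a1a ran from -0.15 to 0.13 and crybb1 from -0.25 to 1.39. The causes were not tested. The median of all probe sets moved from -0.06 to 0.01 with intensities as deposited. List medians kept their sign except for the SWI/SNF, p53, lens, muscle, blood, vessel, skin and respiratory lists. For genes near 0 at 1 age, signal over background limits how well the size of a change is known.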
